A study of Mus musculus with 6 samples.

Results

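Klf1, Gata1 and Hemgn, 3 genes whose proteins work in the nucleus of red cell precursors, were examined in 6 mouse tissue sections measured with Xenium, an imaging assay that decodes single RNA molecules in place with gene-specific probes. Their identifiers are ENSMUSG00000054191, ENSMUSG00000031162 and ENSMUSG00000028332. They are 3 of the 5294 genes covered by the panels used. A panel of 477 genes held all 3 and was applied to 4 sections, whereas a larger panel held Klf1 and Gata1 and was applied to 2 sections. The genes were chosen by name, and their raw counts were followed by section, by the count of Slc4a1 in the same cell, by co-detection and by position over the nucleus. Slc4a1 encodes band 3, the anion exchanger of the red cell membrane.

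All animals were wild-type mice, and each condition had 1 section of 5 µm. On the smaller panel these were an E14.5 fetal liver, a P8 bone marrow, an adult untreated spleen, and a spleen after phenylhydrazine (PHZ), given at 40 mg per kg with 2 injections per day for 2 days. On the larger panel they were an E13.5 fetal liver and a bone marrow at 89 weeks of age. The fetal liver at E14.5 shared a slide with the P8 marrow, and both spleens shared another slide. With 1 section per condition there is no replicate, no test between conditions was possible and no p-value is given. All intervals are 95% exact Poisson or binomial intervals, and they cover counting error only.

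Between 5254 and 140707 cells per section had at least 5 detected genes and were kept, with medians of 62 to 191 counts per cell. The number of probe sets per gene on the smaller panel was 6 for Klf1 and 8 each for Gata1, Hemgn and Slc4a1, and on the larger panel 2 each for Klf1, Gata1 and Slc4a1. Counts of different genes, or of 1 gene on both panels, are therefore not set against each other as amounts. Between 0 and 6 cell names were shared by any pair of sections. Control probes that match no mouse transcript gave at most 105 counts each over a whole section. Hepatocyte markers reached at least 3 counts in 56.3% of the E14.5 liver cells, and those 65996 outlines also averaged 11.4 Slc4a1 counts. How markers of both kinds came to lie in the same outlines was not tested. Labels were checked against defining markers. Hepatocyte markers had 34565 CPM (counts scaled to the same total in every section) in the E14.5 liver and at most 134 in the other sections of the smaller panel, cartilage markers 40424 CPM in the P8 marrow, and T cell markers 25630 CPM in the untreated spleen. On the larger panel the hepatocyte list had only 1 gene, Hrg, and it did not mark the liver. It had 2.89 CPM in the E13.5 liver, from 4 counts, and 4.06 in the 89-week marrow. The fetal liver genes Afp and Apoa1 were added after the data were seen. They had 16108 and 5111 CPM in the E13.5 liver and 7.90 and 2.45 in the 89-week marrow.

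Gata1 is a zinc-finger factor that binds GATA motifs and is required for red cell and megakaryocyte maturation. Klf1 is a Krüppel-like factor that binds CACCC boxes, activates the adult beta-globin gene and many other erythroid genes, and is required for definitive erythropoiesis. Hemgn encodes hemogen, a nuclear protein of hematopoietic cells whose gene is a known Gata1 target in erythroid cells. In the red cell lineage, progenitors carry the receptor Kit and lose it as they mature, while Slc4a1 and the globins rise until the nucleus is expelled.

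The promoters are shown because 2 of the 3 regulators bind DNA themselves, and their motifs can be looked up in the genes' own start regions. RefSeq promoters on GRCm38.p6, from 250 bases before the start of transcription to 50 bases after it, were matched for all 3 genes. Capitals mark CACCC or its reverse complement GGGTG, and the GATA motifs AGATAA and TGATAA as well as AGATAG and TGATAG with their reverse complements. Klf1 lies on the plus strand at chr8:84901732-84902031, Gata1 on the minus strand at chrX:7967861-7968160 and Hemgn on the minus strand at chr4:46404134-46404433. The genes span chr8:84901982-84905291, chrX:7959260-7976663 and chr4:46393989-46404183, and the listed start of Gata1 lies inside its span.
Klf1: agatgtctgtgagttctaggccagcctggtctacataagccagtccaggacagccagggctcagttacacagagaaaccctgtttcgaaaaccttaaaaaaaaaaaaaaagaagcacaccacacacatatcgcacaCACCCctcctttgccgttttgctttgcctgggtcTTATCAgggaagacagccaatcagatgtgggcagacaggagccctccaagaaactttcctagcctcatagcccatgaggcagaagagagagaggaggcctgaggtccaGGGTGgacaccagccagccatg
Gata1: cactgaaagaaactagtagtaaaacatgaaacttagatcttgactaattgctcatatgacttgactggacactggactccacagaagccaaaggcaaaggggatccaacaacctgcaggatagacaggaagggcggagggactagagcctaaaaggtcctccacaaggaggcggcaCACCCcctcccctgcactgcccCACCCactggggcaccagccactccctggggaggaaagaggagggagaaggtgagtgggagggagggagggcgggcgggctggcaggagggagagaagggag
Hemgn: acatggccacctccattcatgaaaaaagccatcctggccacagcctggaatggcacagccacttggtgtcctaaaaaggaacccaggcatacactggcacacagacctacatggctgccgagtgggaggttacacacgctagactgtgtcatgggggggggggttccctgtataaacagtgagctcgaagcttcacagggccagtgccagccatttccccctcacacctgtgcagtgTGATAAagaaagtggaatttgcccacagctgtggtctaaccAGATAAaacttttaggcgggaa

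In these windows, the Klf1 promoter held 1 GATA motif at position -80 and CACCC boxes at -114 and 28. Hemgn held GATA motifs at -13 and 28 and no CACCC box, whereas Gata1 held CACCC boxes at -74 and -52 and no GATA motif. Both motifs are common. A GATA motif stood in 29.8% and a CACCC box in 57.5% of 32851 promoters of the same length, so these matches describe the windows and are not evidence of binding.

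All 3 genes were abundant in the E14.5 fetal liver and rare in the untreated spleen. Klf1 averaged 3.01 counts per cell at E14.5 and 0.763 in the P8 marrow, and 0.0593 in the untreated spleen against 1.34 after PHZ. Gata1 averaged 2.03, 0.547, 0.0503 and 1.04 in the same order. For Hemgn the means were 7.45, 2.68, 0.120 and 2.83. Per cell, all 3 genes thus followed the order of E14.5 liver, PHZ-treated spleen, P8 marrow and untreated spleen.

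The same order held in CPM. Klf1 reached 16871 CPM in the E14.5 liver, 11090 in the PHZ-treated spleen, 5988 in the P8 marrow and 621 in the untreated spleen. Gata1 had 11392, 8589, 4298 and 527 CPM. Hemgn had 41728, 23373, 21048 and 1257 CPM, and its PHZ-treated spleen and P8 marrow were the closest pair of neighbors in any of these orders. Their counting intervals did not overlap (23285 to 23462 against 20936 to 21160).

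Most cells of the E14.5 liver carried the transcripts and few of the untreated spleen did. At least 1 Klf1 count was found in 80.9% of the cells of the E14.5 liver, 37.4% of the P8 marrow, 3.33% of the untreated spleen and 47.2% of the PHZ-treated spleen. For Gata1 these shares were 70.8%, 30.4%, 3.14% and 42.5%, and for Hemgn 91.3%, 55.2%, 4.86% and 56.4%. After every cell was thinned to 50 counts, which left out between 2217 and 16928 shallower cells per section, the order stayed. Klf1 was then seen in 51.6%, 23.4%, 1.85% and 34.3% of the cells. Single cells reached 24 Klf1, 27 Gata1 and 52 Hemgn counts in the E14.5 liver. The highest single-cell counts of Klf1 and Gata1 lay elsewhere, at 26 in the P8 marrow and 35 in the untreated spleen.

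The genes were also counted in cells with markers of types that should lack them, with unequal results. In the P8 marrow, 6994 cells with at least 3 counts of the cartilage markers Acan, Col2a1, Comp and Ucma had 0.0397 Klf1, 0.00944 Gata1 and 0.0533 Hemgn counts per cell at a median depth of 103. Of these cells, 3.35% had Klf1, compared with 37.4% of all cells at a median depth of 112. In the untreated spleen, 30452 cells with T cell markers had 0.0265 Klf1, 0.0301 Gata1 and 0.0492 Hemgn counts per cell. Klf1 was found in 1.98% of them and in 3.33% of all cells of that section, at median depths of 92 and 84. Other sets, large and small, were not low in at least 1 of the genes. In the E14.5 liver, 65996 cells with hepatocyte markers averaged 3.56 Klf1 counts, where the section mean was 3.01, at median depths of 189 and 167. Neutrophil-lineage markers were found in 15612 cells of the P8 marrow, which averaged 0.887 Klf1 counts against a section mean of 0.763. In the P8 marrow, 120 cells with T cell markers averaged 0.767 Klf1 counts (0.618 to 0.940), where the section mean was 0.763. Cells with the skeletal muscle markers Actn3, Pygm and Myoz1 averaged 3.66 Gata1 counts in the E14.5 liver (35 cells), where the section mean was 2.03. Klf1 and Hemgn were low in these 35 cells, at 0.829 and 1.86 against section means of 3.01 and 7.45. In the untreated spleen, 24 such cells averaged 2.58 Gata1 counts against a section mean of 0.0503. In the P8 marrow, 3216 such cells averaged 0.0165 Gata1 counts. How transcripts came to lie in these outlines was not tested.

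The E14.5 liver and the P8 marrow were compared directly, as they shared panel, slide and run. Klf1 was 2.82-fold higher in the liver (log2 1.49, 1.48 to 1.51), Gata1 2.65-fold (log2 1.41, 1.39 to 1.42) and Hemgn 1.98-fold (log2 0.99, 0.98 to 1.00). Thus 2 of the 3 genes passed 2-fold upward, where 20.2% of 356 genes did and 43% passed 2-fold downward. Hemgn lay at the limit and passed it, at log2 values of 1.02 to 1.47, with 4 other settings, among them counts per cell. The median gene stood at a log2 of -0.57. Of 22 other erythroid genes on the panel, 5 were higher and 4 lower past 2-fold, with a median log2 of 0.79. These sections differ in tissue and age, and cartilage markers had 149 CPM in the liver against the 40424 CPM of the marrow, so a lower share of erythroid cells and less RNA per erythroid cell cannot be told apart in these totals. Their part was not tested.

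Cells were next classed by their raw Slc4a1 count of 0, 1 to 4, 5 to 9, or 10 or more. The highest class held 54.1% of the cells in the E14.5 liver, 25.1% in the P8 marrow, 0.786% in the untreated spleen and 21.3% after PHZ. Cells without Slc4a1 made up 2.95%, 31.3%, 88.7% and 35.1%. Median depth apart from Slc4a1 was greatest in the highest class of each section. From the lowest class up it was 128, 128, 130 and 173 counts in the E14.5 liver and 95, 90, 95 and 135 in the P8 marrow. It rose at each step in both spleens, from 81 to 191 in the untreated and from 71 to 164 in the treated section.

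All 3 genes rose with every step of the Slc4a1 class in every section of the smaller panel. In the E14.5 liver, Klf1 averaged 1.09, 1.89, 2.56 and 3.70 counts per cell from the lowest class to the highest. Gata1 averaged 0.681, 1.30, 1.65 and 2.53 counts per cell, and Hemgn 0.901, 2.41, 4.82 and 10.7. In the P8 marrow, Klf1 rose from 0.0750 to 1.67, Gata1 from 0.0527 to 1.17 and Hemgn from 0.122 to 6.79 counts per cell. As a ratio, the whole range was widest in the untreated spleen, where Klf1 rose from 0.0254 to 1.90, Gata1 from 0.0282 to 1.13 and Hemgn from 0.0306 to 6.66. In the PHZ-treated spleen the corresponding means were 0.172 and 3.15 for Klf1, 0.139 and 2.45 for Gata1, and 0.180 and 7.78 for Hemgn.

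**Figure D1:**
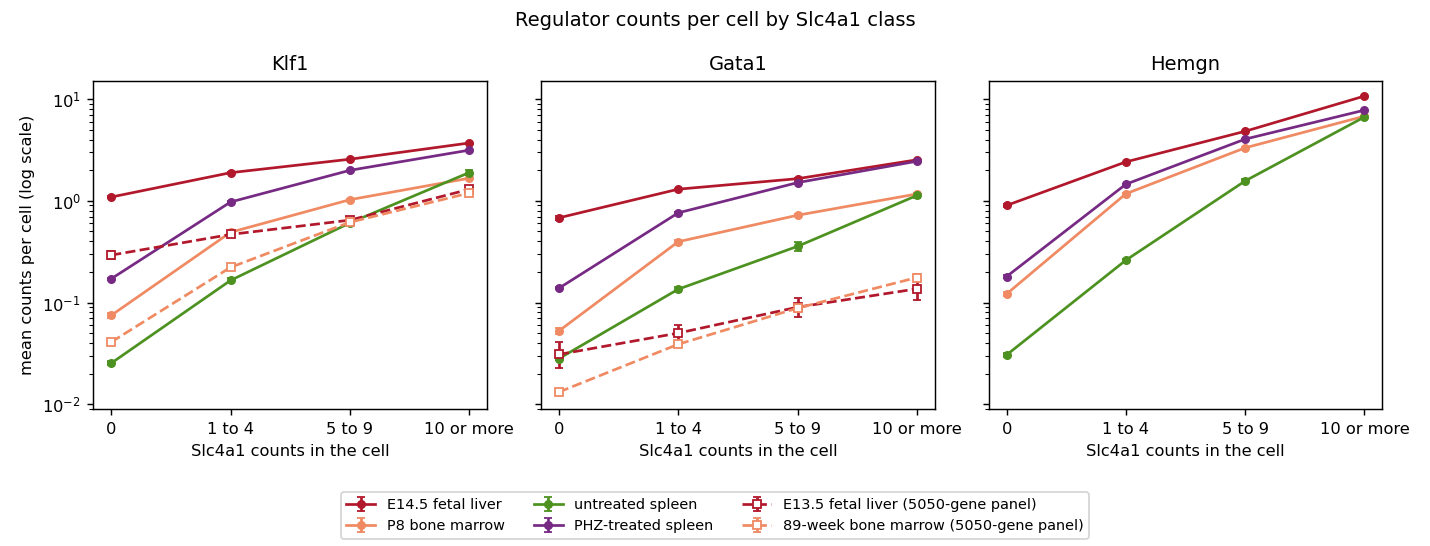
Mean counts per cell of Klf1, Gata1 and Hemgn (log scale) in cells with 0, 1 to 4, 5 to 9, and 10 or more Slc4a1 counts, with 95% exact Poisson intervals, for each section. Filled points are the 477-gene panel and open points the larger panel, which lacks Hemgn. Each line climbs from left to right, and the 4 lines of the smaller panel lie closer together in the highest class than in the lowest.

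As log2 of the highest class over the lowest, Klf1 stood at 1.76 in the E14.5 liver, 4.47 in the P8 marrow, and 6.22 and 4.196 in the untreated and PHZ-treated spleens. Gata1 stood at 1.89, 4.47, 5.32 and 4.14, and Hemgn at 3.57, 5.80, 7.77 and 5.43. All 3 genes were past 2-fold upward in each of the 4 sections, where 9.97%, 26.2%, 17.1% and 15.4% of the genes tested were. Hemgn ranked 4, 3, 2 and 2 among 291, 252, 292 and 272 genes, Klf1 ranked 22, 16, 6 and 14, and Gata1 19, 17, 14 and 15. Deeper cells can hold more of any transcript. In CPM of genes other than Slc4a1, Klf1 had log2 differences of 1.41, 4.17, 5.05 and 3.23, Gata1 1.54, 4.17, 4.16 and 3.17, and Hemgn 3.21, 5.50, 6.60 and 4.46. On that scale all 3 were again past 2-fold upward, where 8.59%, 21.8%, 9.93% and 11% of the genes were.

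In CPM of other genes, the last step was smaller for Klf1 and Gata1 than for Hemgn in all 4 sections. From 5 to 9 Slc4a1 counts to 10 or more, Klf1 on this scale changed by a log2 of 0.21 in the E14.5 liver, 0.24 in the P8 marrow and 0.10 in the PHZ-treated spleen. For Gata1 these steps were 0.29, 0.23 and 0.14. Hemgn gained 0.83, 0.57 and 0.38. These steps were mostly smaller than the ones before them, with Hemgn in the PHZ-treated spleen going from 1.31 to 0.38, while Gata1 in the E14.5 liver had 0.31 and then 0.29. The untreated spleen differed, with last steps of 1.15 for Klf1, 1.17 for Gata1 and 1.60 for Hemgn, in a class of only 851 cells.

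The number of Hemgn counts per Klf1 count therefore changed with the class. This ratio was 0.827 in the lowest and 2.89 in the highest class of the E14.5 liver (2.88 to 2.91). It went from 1.62 to 4.07 in the P8 marrow, from 1.20 to 3.52 in the untreated spleen and from 1.05 to 2.47 in the PHZ-treated spleen, rising at each step in all 4 sections. Gata1 per Klf1 moved far less. It stayed between 0.625 and 0.688 over the classes of the E14.5 liver, between 0.700 and 0.808 in the P8 marrow and between 0.757 and 0.807 in the PHZ-treated spleen. For the untreated spleen the same ratio fell from 1.11 to 0.595. Probe number cancels within a section in such comparisons, although the ratio itself is not one of molecules.

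The pathway genes fixed for comparison went mostly the same way. Receptors, heme and iron enzymes, membrane proteins, the globin Hbb-bt and other erythroid genes were past 2-fold upward between the highest and lowest Slc4a1 class in 14 of 21 cases in the E14.5 liver, 18 of 21 in the P8 marrow, 17 of 20 in the untreated spleen and 20 of 21 in the PHZ-treated spleen. Their median log2 was 1.93, 4.08, 4.15 and 4.01. In each of these sections, Hemgn lay above that median. Klf1 and Gata1 lay above it in the P8 marrow and both spleens, but below it in the E14.5 liver, at 1.76 and 1.89.

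Kit, the receptor of progenitors, separated the 3 genes in another way, in an analysis chosen after values had been seen. In the E14.5 liver, Klf1 averaged 2.69 counts in cells with 0 Kit counts, 3.58 with 1 to 2, 5.72 with 3 to 9 and 8.82 with 10 or more, the last in 605 cells. Gata1 averaged 1.81, 2.39, 3.93 and 6.33. Hemgn went the opposite way there, with 7.63, 7.07, 6.07 and 5.52 counts per cell, although median depth rose from 158 to 320 counts. This fall did not hold within most Slc4a1 classes. Cells with at least 3 Kit counts averaged 2.80, 4.16, 5.80 and 9.35 Hemgn counts from the lowest Slc4a1 class up. Cells without Kit averaged 0.664, 2.04, 4.64 and 10.7. In CPM of other genes, Hemgn was higher in the Kit-rich cells at 0 and at 1 to 4 Slc4a1 counts, and lower from 5 upward.

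Per cell, the E14.5 liver was the only 1 of the 4 sections with this split. Hemgn averaged 2.63, 3.05, 3.25 and 4.28 counts with rising Kit in the P8 marrow, and 2.80, 3.02, 3.03 and 3.89 in the PHZ-treated spleen. In CPM of genes other than Kit, which allows for the greater depth of Kit-rich cells, the split was present in 3 of the 4 sections. Klf1 went from 15991 in Kit-negative cells to 28197 in the Kit-richest cells of the E14.5 liver, from 5697 to 19035 in the P8 marrow and from 10648 to 20896 in the PHZ-treated spleen. Gata1 rose from 10782 to 20227, from 4034 to 12334 and from 8116 to 18122. Hemgn fell from 45357 to 17639, from 21318 to 16294 and from 24358 to 12898. The untreated spleen had all 3 rising, and Hemgn went from 1211 to 9058. Only 25 cells of the P8 marrow were in the Kit-richest class (Hemgn 13353 to 19689), with 37 of the untreated and 92 of the PHZ-treated spleen.

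Kit counts of 3 or more without any Slc4a1 count were taken as the most progenitor-like combination of these genes. In the E14.5 liver, 270 such cells averaged 4.56 Klf1, 2.93 Gata1 and 2.80 Hemgn counts, compared with 0.598, 0.405 and 0.664 in 2385 cells without either transcript. Their median depths were 206.5 and 114 counts. In the PHZ-treated spleen, 479 such cells averaged 2.02 Klf1, 1.73 Gata1 and 1.10 Hemgn counts, compared with 0.109, 0.0863 and 0.140 in 29931 cells without either. The untreated spleen had the largest such set, 1362 cells, with only 0.462 Klf1, 0.315 Gata1 and 0.245 Hemgn counts. In its 85056 cells without either, the means were 0.0153, 0.0213 and 0.0247. At the other end, 54054 Kit-negative cells of the E14.5 liver with at least 10 Slc4a1 counts averaged 3.49 Klf1, 2.37 Gata1 and 10.7 Hemgn counts.

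**Figure D2:**
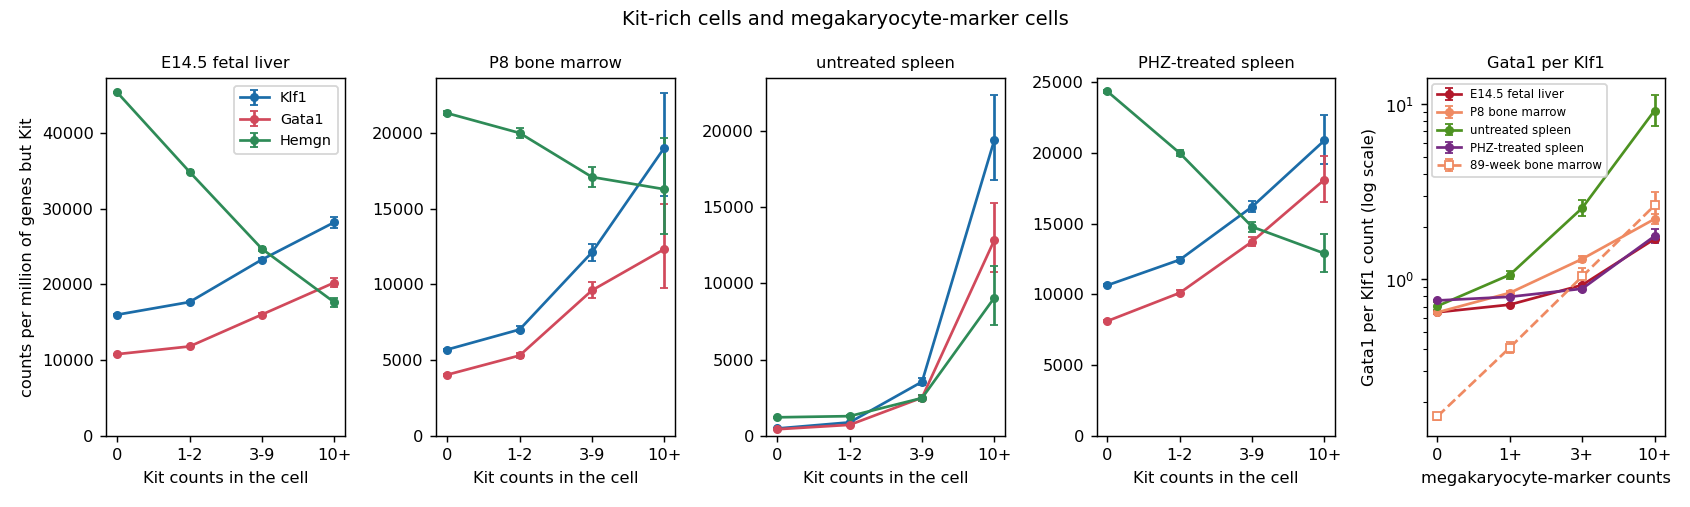
The first 4 panels plot Klf1, Gata1 and Hemgn in CPM of genes other than Kit against the Kit count of the cell, with 95% exact Poisson intervals. The last panel plots Gata1 counts per Klf1 count (log scale) against the summed count of megakaryocyte markers, with 95% intervals. On this scale Hemgn falls from left to right in every section but the untreated spleen, and Gata1 per Klf1 climbs to 9.19 in the untreated spleen.

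Co-detection asked whether the same cells carried the genes more often than depth alone gives. Expected numbers came from 20 strata of equal size by the count of all other genes. Klf1 and Gata1 were seen together in 63.2% of the E14.5 liver cells, 21.2% of the P8 marrow, 1.10% of the untreated spleen and 34.6% of the PHZ-treated spleen. The log2 ratio of observed to expected cells was 0.09, 0.71, 2.18 and 0.48. Klf1 and Hemgn gave 0.06, 0.59, 2.24 and 0.46, and Gata1 and Hemgn 0.07, 0.60, 2.05 and 0.46. Within a section the 3 pairs lay near each other, but not all intervals overlapped. Klf1 and Gata1 stood above the other pairs in the E14.5 liver (0.08 to 0.10) and the P8 marrow (0.68 to 0.74). The highest ratio possible at the genes' detection rates also differed by pair. In the E14.5 liver it was 0.26 for Klf1 and Gata1 and 0.12 for each other pair. In the P8 marrow it was 1.23 for Klf1 and Gata1, 0.75 for Klf1 and Hemgn, and 0.74 for Gata1 and Hemgn. The pair with the highest ratio thus also had the highest limit in both sections. The order of the pairs therefore does not rank how closely they go together. The observed ratio was smallest where most cells carried both genes.

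Among cells with at least 10 Slc4a1 counts, Klf1 and Gata1 had log2 ratios of 0.03, 0.09, 0.19 and 0.03 in the same order of sections. The highest ratios possible at the genes' detection rates in these cells were 0.13, 0.43, 0.46 and 0.15. For Klf1 and Hemgn the ratios were at most 0.13, in the untreated spleen, where 0.18 was the highest possible, and in the E14.5 liver no more than 0.02 was possible. The ratios of Klf1 and Gata1 lay well below these limits. On the larger panel they were -0.03 in the E13.5 liver (-0.50 to 0.41) and -0.01 in the 89-week marrow (-0.17 to 0.14), where 0.56 and 0.52 were possible.

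Cells with all 3 transcripts made up 61.8% of the E14.5 liver, 20.2% of the P8 marrow, 0.838% of the untreated spleen and 32.9% of the PHZ-treated spleen. None of the 3 was seen in 4.15%, 39.0%, 91.8% and 36.5%. In the highest Slc4a1 class, all 3 were seen in 76.3%, 47.5%, 43.9% and 76.1% of the cells. Most highest-class cells with a single member had Hemgn, which alone was seen in 13.2% of them in the P8 marrow, against 0.938% with only Klf1 and 0.819% with only Gata1. Detection of a gene also depends on its probe sets, 6 for Klf1 and 8 each for Gata1 and Hemgn, so these shares are not amounts. In E14.5 liver cells without Slc4a1, Klf1 alone was the most frequent single finding, at 14.9%, with 10.6% for Hemgn alone. The other sections differed, since Hemgn alone led in Slc4a1-negative cells of the P8 marrow (4.99% against 2.82% for Klf1), the untreated spleen (1.77% and 1.12%) and the PHZ-treated spleen (5.31% and 3.51%).

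The genes most often seen with each member were ranked over 187 genes by the median of this log2 ratio over the 4 sections. Gata1 stood closest to Klf1, with a median of 0.59, followed by Epor, the erythropoietin receptor (0.59), Rhd, a Rhesus blood group protein (0.58), Gfap (0.58) and Prx (0.57). These medians lay close together, and in each single section Gfap or Rhd stood above Gata1. The list for Gata1 was led by Epor (0.60), Slc14a1, a urea transporter of red cells (0.60), Gfap (0.60), Klf1 (0.59) and Rhd (0.58). Hemgn was followed by Rhd (0.56), Klf1 (0.53), Gata1 (0.53), Prx (0.52) and Gfap (0.52). Slc4a1 itself ranked 19 for Klf1, 21 for Gata1 and 16 for Hemgn. The ratio depends on how common a gene is, and genes found in most erythroid cells cannot reach high values.

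Gfap and Prx are known from glia and not from red cells, so their levels are given. Gfap had 2263 CPM in the E14.5 liver, 1260 in the P8 marrow, and 149 and 1008 in the untreated and PHZ-treated spleens. It averaged 0.574 counts in the highest and 0.0474 in the lowest Slc4a1 class of the E14.5 liver. Prx averaged 4.10 and 0.582 counts there. Whether the probes for these 2 genes read their own transcripts in these cells was not tested.

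Nuclear position was recorded for single transcripts on the smaller panel. Of the transcripts in cells, 60.5% of Klf1, 60.4% of Gata1 and 62.5% of Hemgn lay over a nucleus in the E14.5 liver, where all genes together had 57.2%. In the P8 marrow the shares were 61.8%, 59.7% and 63.0%, against 48.9% for all genes. In the untreated spleen they were 56.6%, 53.9% and 60.1%, against 58.9%, and in the PHZ-treated spleen 54.8%, 55.4% and 57.3%, against 51.0%. The members thus stood above all genes in 3 sections, and only Hemgn did so in the untreated spleen. Their ranks were modest. The highest was rank 33 of 253 genes for Hemgn in the P8 marrow, while Epor reached 73.4% and rank 21 of 292 in the E14.5 liver. Proteins of these genes act in the nucleus, but the position measured here is that of the RNA, in a flat projection in which cytoplasm above and below a nucleus counts as nuclear.

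The part of the cell area taken by the nucleus differed between Slc4a1 classes. From the lowest to the highest class it went from 38.8% to 50.6% in the E14.5 liver and from 12.7% to 42.0% in the P8 marrow. In the untreated spleen it went from 55.0% to 49.6%, and after PHZ from 36.9% to 40.3%. Its part in the shares below was not tested. Nuclear share of the members was higher in the highest Slc4a1 class than in the lowest. All other genes rose too, from 49.3% to 58.3% in the E14.5 liver and from 30.4% to 61.9% in the P8 marrow. They rose from 48.0% to 56.6% after PHZ, but went from 59.8% to 58.8% in the untreated spleen. There, the share of the members was lowest at 1 to 4 Slc4a1 counts, with 49.2% for Klf1, 48.3% for Gata1 and 47.1% for Hemgn. In cells with at least 10 Slc4a1 counts, it was 62.2% for Klf1, 62.3% for Gata1 and 63.7% for Hemgn in the E14.5 liver, with 58.3% for all other genes. In the P8 marrow it was 65.0%, 63.2% and 65.5%, with 61.9% for the others. In the untreated spleen the members reached 67.8%, 72.3% and 70.2%, with 58.8%, and after PHZ 58.3%, 59.6% and 60.6%, with 56.6%. All 3 members therefore exceeded the other genes of the same cells in all 4 sections. This was not particular to them. Slc4a1, which encodes a membrane protein, did so too, with 61.4%, 65.3%, 66.7% and 59.8% in the same order. Hbb-bt did not, with 58.2%, 60.1%, 58.7% and 53.4%. In cells without Slc4a1, both spleens showed the reverse for the members. There, 54.5% of Klf1, 50.04% of Gata1 and 53.7% of Hemgn transcripts lay over the nucleus in the untreated spleen, against 59.8% for other genes, and 42.7%, 41.7% and 41.1% in the PHZ-treated spleen, against 48.0%. Slc4a1-negative cells that had a member also lay nearer to Slc4a1-rich cells. In the PHZ-treated spleen, the median distance to the nearest cell with at least 10 Slc4a1 counts was 79.9 µm for cells without Klf1 and 19.1 µm for cells with it.

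**Figure D3:**
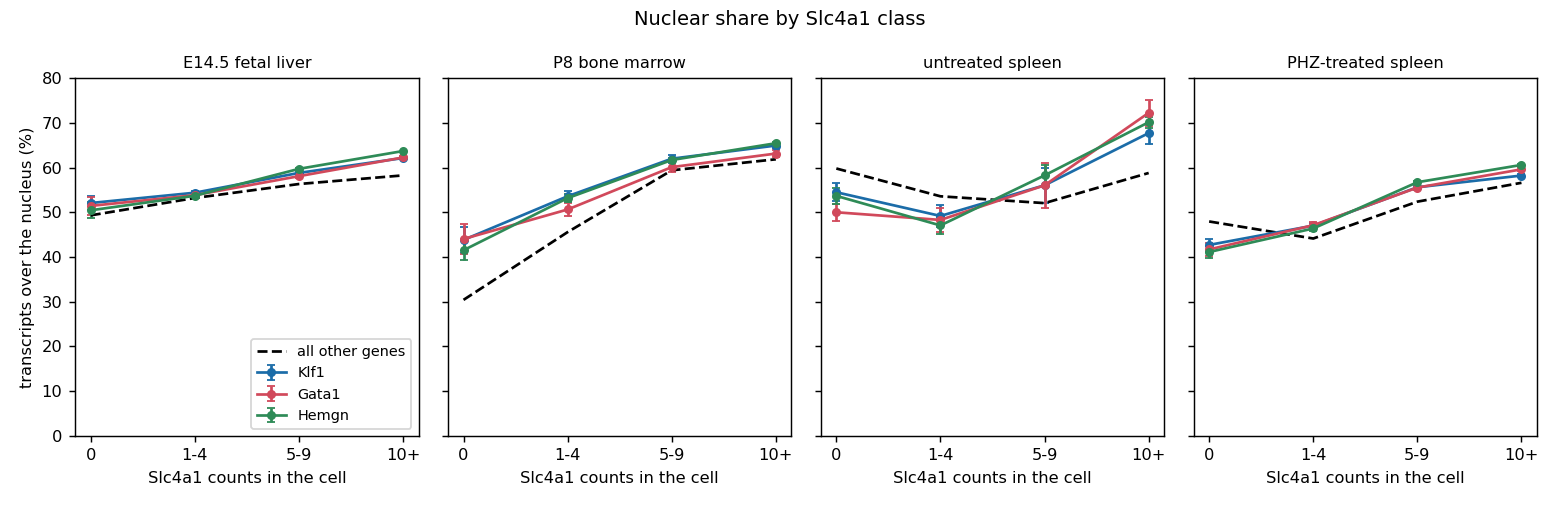
Percent of transcripts assigned to cells that lay over the nucleus, by Slc4a1 count of the cell, for Klf1, Gata1, Hemgn (points with 95% exact binomial intervals) and all other genes (dashed line) in the 4 sections of the smaller panel. The members lie above the dashed line in the highest class of each section and below it in the lowest class of both spleens.

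Nucleus size was compared within the highest Slc4a1 class, since erythroblast nuclei condense as the cells mature. In the E14.5 liver, the median nucleus area was 22.2 µm2 in cells with 0 Klf1 counts, 23.9 with 1, 25.9 with 2 and 32.6 with 3 or more. Between 0 counts and 3 or more, the median went from 23.4 to 33.1 µm2 in the P8 marrow, from 23.3 to 31.8 in the untreated spleen and from 24.4 to 34.4 in the PHZ-treated spleen. Gata1 and Hemgn followed the same direction in all 4 sections. With Gata1 it went from 23.1 to 34.2 µm2 in the E14.5 liver, and with Hemgn from 20.9 to 29.8. Depth moved with it, from a median of 136 to 218 counts for Klf1 in the E14.5 liver. The median ratio over the sections was 1.41 for Klf1, 1.45 for Gata1 and 1.39 for Hemgn. In cells of middle depth, a check added after the data were seen, it was 1.15, 1.12 and 1.26.

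Gata1 was set apart from Klf1 in cells rich in the megakaryocyte markers Pf4, Ppbp, Vwf and Mmrn1. Megakaryocytes, the platelet-forming cells, are known to use Gata1. In cells without these markers, Gata1 per Klf1 was 0.650 in the E14.5 liver, 0.649 in the P8 marrow, and 0.705 and 0.759 in the untreated and PHZ-treated spleens. With at least 3 marker counts it was 0.930, 1.31, 2.55 and 0.885, and with at least 10 it was 1.7004, 2.21, 9.19 and 1.77. The ratio rose with the markers in all 4 sections. On the larger panel, with Itga2b added to the markers, it went from 0.166 without markers to 2.64 with at least 10 in the 89-week marrow, while in the E13.5 liver it was 0.113 without markers and rested on only 5 Gata1 against 20 Klf1 counts with at least 10 (interval 0.0733 to 0.686).

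In absolute terms, 732 untreated spleen cells with at least 10 marker counts averaged 1.36 Gata1, 0.148 Klf1 and 0.542 Hemgn counts, with 0.434 of Slc4a1. Gata1 in these cells exceeded its mean over the section of 0.0503. In the PHZ-treated spleen, 756 such cells averaged 1.74 Gata1, 0.983 Klf1 and 2.15 Hemgn counts, with 3.49 of Slc4a1. The nuclear share of Gata1 in these cells was 40.6% in the untreated spleen and 43.8% in the P8 marrow, compared with 72.3% and 63.2% in Slc4a1-rich cells. All other genes of the megakaryocyte-marker cells stood at 44.3% and 50.2%. Gata1 after PHZ had 45.1% in megakaryocyte-marker and 59.6% in Slc4a1-rich cells, and in the E14.5 liver 51.5% and 62.3%. All other genes of the megakaryocyte-marker cells had 35.1% after PHZ and 51.2% in the E14.5 liver. Gata1 thus lay below the other genes of these cells in the untreated spleen and the P8 marrow only. Compared with Slc4a1-rich cells, the share of Klf1 was lower in megakaryocyte-marker cells as well. It was 55.2% in the E14.5 liver, 60.3% in the P8 marrow, 51.9% in the untreated spleen and 42.4% after PHZ, where Slc4a1-rich cells had 62.2%, 65.0%, 67.8% and 58.3%.

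PHZ lyses circulating red cells, and the mouse spleen is a known site of the erythropoiesis that follows. Klf1 went from 621 CPM in the untreated to 11090 in the PHZ-treated spleen, a 17.9-fold difference (log2 4.16, 4.12 to 4.196). Gata1 went from 527 to 8589 CPM, 16.3-fold (log2 4.03, 3.99 to 4.07), and Hemgn from 1257 to 23373 CPM, 18.6-fold (log2 4.22, 4.19 to 4.24). All 3 passed 2-fold upward, where 17.5% of 343 genes did and 35.6% passed 2-fold downward. They stood at ranks 4 (Hemgn), 5 (Klf1) and 6 (Gata1), and the median gene at a log2 of -0.56.

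Of all 343 genes, 3 ranked above them. Of 22 other erythroid genes, from a list chosen with earlier results known, 17 were past 2-fold higher, 0 were past 2-fold lower, and the median log2 was 2.53. Plek2, a protein of the erythroblast skeleton, was 75.4-fold higher and Rhd 24.0-fold. Slc4a1 was 11.2-fold higher, Epor 10.05-fold and Hbb-bt 5.19-fold, all below the 3 regulators. Kit was close to even at 0.995-fold, although Klf1 and Gata1 were highest in Kit-rich cells of both sections.

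Per cell the differences were 22.6-fold for Klf1, 20.6-fold for Gata1 and 23.5-fold for Hemgn, and per tissue area the sections had 1376 and 17968 Klf1 counts per mm2. The untreated section held 23196 and the treated one 13394 cells per mm2, so the choice of denominator moves the values. Cell outlines were larger after PHZ, with median areas of 53.0 and 35.6 µm2, and nuclei covered 34.6% and 53.6% of the cell area.

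**Figure D4:**
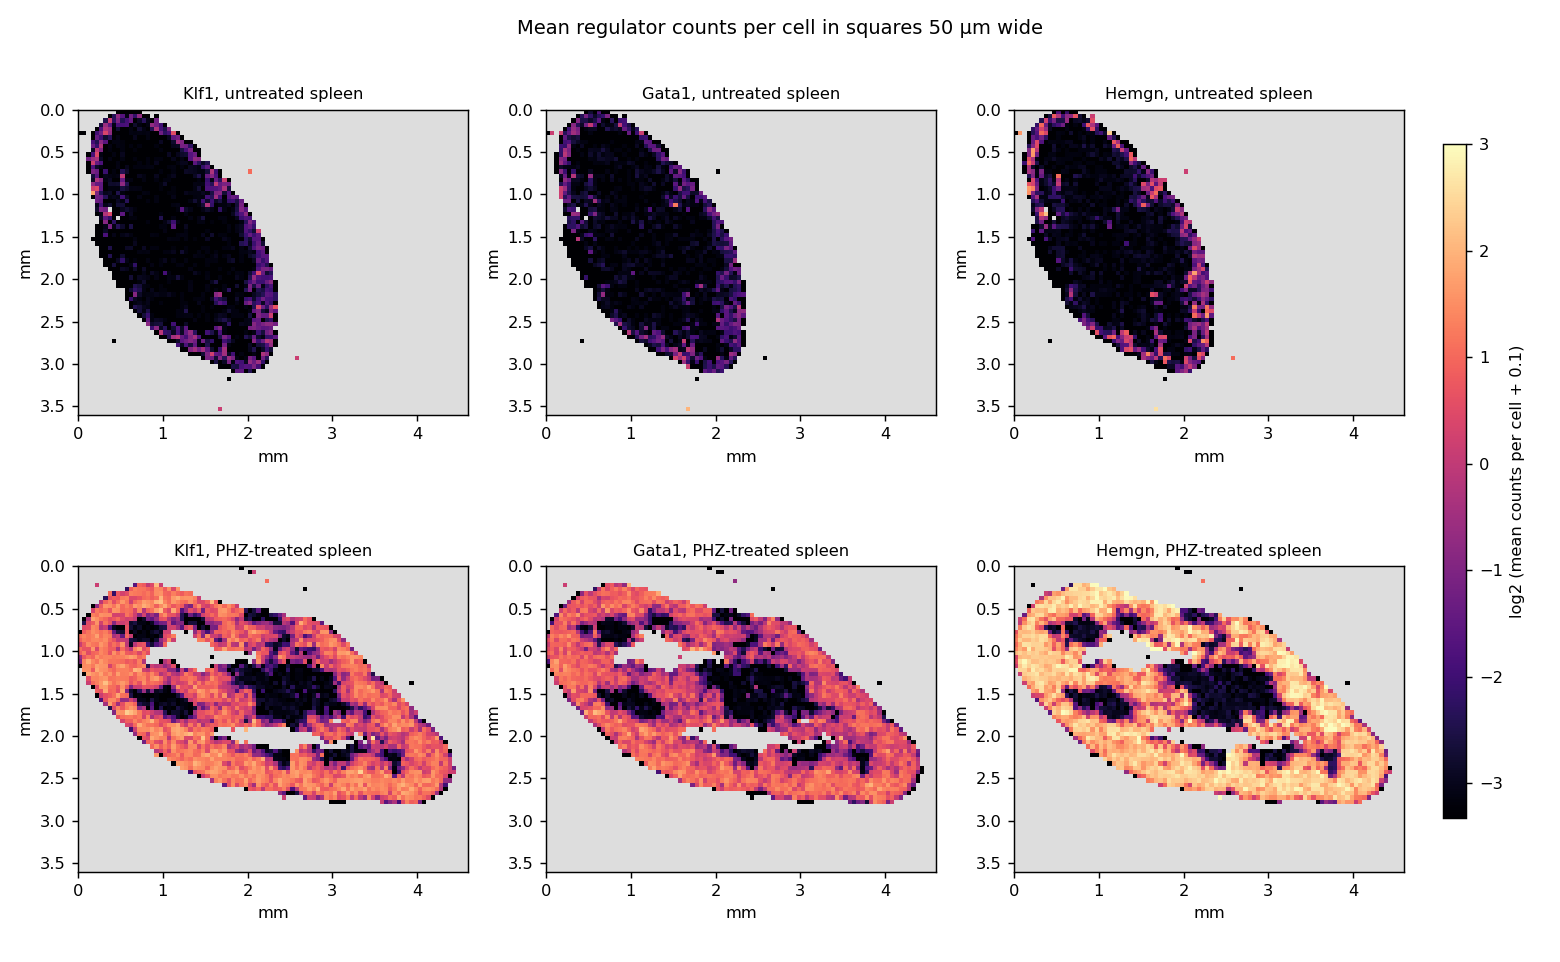
Mean counts per cell of Klf1, Gata1 and Hemgn in squares 50 µm wide, drawn to scale in mm, in the untreated (top) and PHZ-treated (bottom) spleen, as log2 of the mean plus 0.1; grey is outside the tissue. In the untreated spleen the signal lies in patches along the rim, and after PHZ it fills the section except for sharply bounded dark areas.

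Position in the tissue changed too. When squares 50 µm wide with at least 10 cells were ranked by Slc4a1 per cell, the top 10% held 53.4% of the Klf1, 42.3% of the Gata1 and 67.0% of the Hemgn counts of the untreated spleen, with 7.91% of its cells. In the PHZ-treated spleen the top 10% held 17.7%, 17.2% and 20.2%, with 9.26% of the cells. Klf1 per cell had a median over squares of 0.0127 in the untreated and 1.43 in the treated section. In the E14.5 liver the top 10% of squares held 9.15%, 9.29% and 10.7%, with 8.51% of the cells. They held 9.44% of the counts of all genes, and only Hemgn stood above that share. Squares of that section still varied, and from the 10th to the 90th percentile Klf1 per cell went from 1.79 to 4.10, Gata1 from 1.22 to 2.79 and Hemgn from 4.57 to 9.91. In this ranking the P8 marrow lay between, with 16.2%, 16.4% and 18.5%.

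Both the shares of the Slc4a1 classes and the levels within them differed between the spleens. The highest class held 0.786% of the cells in the untreated and 21.3% in the treated section. With the untreated level of each class and the treated class shares, the per-cell mean would differ 9.54-fold for Klf1, 6.95-fold for Gata1 and 14.8-fold for Hemgn. With treated levels and untreated shares it would differ 4.89-, 4.57- and 3.33-fold. This division describes the means and is not a model of the tissue.

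Within Slc4a1 classes, the sections differed least in the highest class for all 3 genes. In cells with at least 10 Slc4a1 counts, Klf1 averaged 1.90 counts in the untreated and 3.15 in the treated section, a ratio of 1.66 (log2 0.73, 0.66 to 0.80). Gata1 averaged 1.13 and 2.45, a ratio of 2.17 (log2 1.12, 1.03 to 1.21), and Hemgn 6.66 and 7.78, a ratio of 1.17 (log2 0.22, 0.19 to 0.26). The 3 intervals did not overlap, and Gata1 differed most and Hemgn least. In cells without Slc4a1 the ratios were 6.75, 4.92 and 5.89, and with 1 to 4 counts 5.89, 5.62 and 5.58. In CPM of genes other than Slc4a1, they were 1.95, 2.56 and 1.37 in the highest class and 6.93, 5.05 and 6.05 in the lowest.

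**Figure D5:**
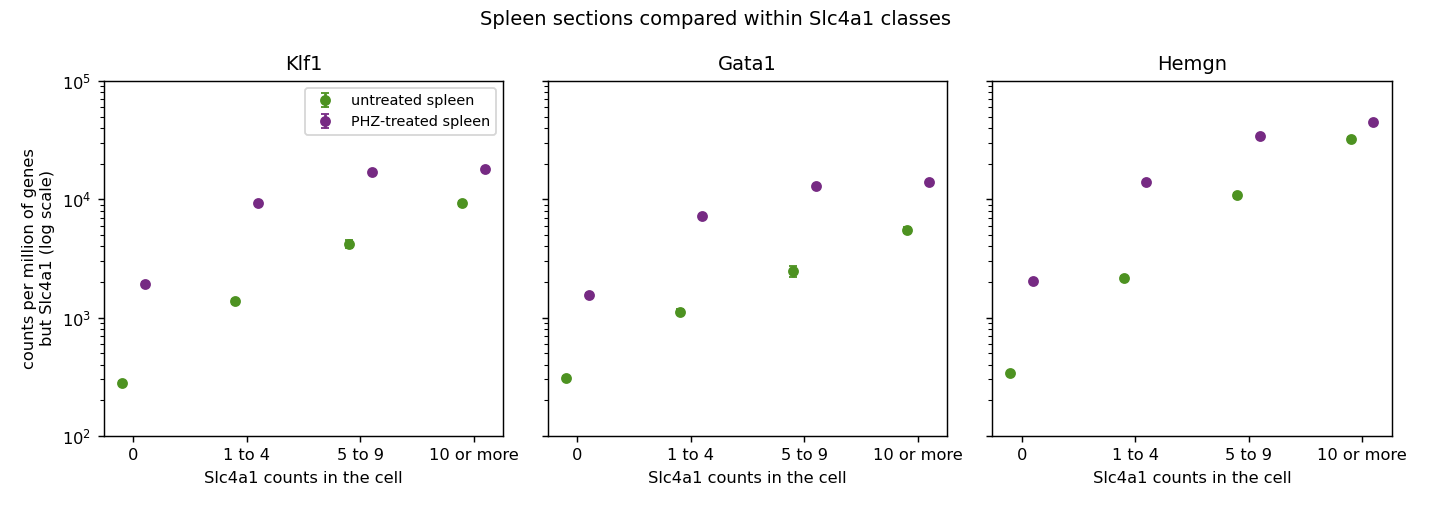
Klf1, Gata1 and Hemgn in CPM of genes other than Slc4a1 (log scale) by Slc4a1 count of the cell, in the untreated and PHZ-treated spleen, with 95% exact Poisson intervals that are mostly smaller than the points. The gap between the sections is smaller in the highest class than in the others for all 3 genes, and smallest for Hemgn in the highest class.

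The level in cells with markers of other types moved with treatment as well. In cells with at least 3 counts of T cell markers, Klf1 went from 0.0265 to 0.203 counts per cell, 7.65-fold, Gata1 5.13-fold and Hemgn 7.22-fold. These ratios are near those of the cells without Slc4a1. Cells with at least 3 megakaryocyte-marker counts differed more for Klf1 and Hemgn, with 16.9-fold for Klf1, 5.86-fold for Gata1 and 14.4-fold for Hemgn. The part of neighboring transcripts in the low classes was not tested. In cells with at least 3 Kit counts, Klf1 averaged 0.655 counts in the untreated and 3.45 in the treated section, Gata1 0.457 and 2.93, and Hemgn 0.430 and 3.07. These 2 sets differ in make-up. Of them, 1362 of 1636 untreated and 479 of 2245 treated cells had no Slc4a1. With 3 to 9 Kit counts, Klf1 was found in 17.1% and 80.8% of the cells. A change of level within progenitors was not tested. Decoding quality also differed. Of decoded transcripts, the share at a quality score of at least 20 was 85.6% for Klf1, 80.8% for Gata1 and 87.7% for Hemgn in the untreated spleen, and 68.3%, 70.1% and 65.9% after PHZ, with gene medians of 87.6% and 68.5%. Gata1 stood below the median in the untreated spleen, at rank 33 from the lowest of 293 genes, and with transcripts of any score its PHZ difference was a log2 of 3.84. In the P8 marrow Klf1 stood lower too, at 58.5% against a gene median of 72.0%.

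On the larger panel, Klf1 averaged 0.528 counts per cell in the E13.5 liver and 0.126 in the 89-week marrow, and Gata1 0.0603 and 0.0250. Klf1 was seen in 32.0% and 8.58% of the cells and Gata1 in 5.60% and 2.30%. The E13.5 liver had 2004 CPM of Klf1 and the 89-week marrow 1362 (log2 0.56, 0.50 to 0.61), and for Gata1 229 and 270 (log2 -0.24, -0.41 to -0.07). In CPM neither gene passed 2-fold, which 11.3% of 2239 genes did upward and 20.7% downward. Per cell both did, with log2 values of 2.06 (2.01 to 2.12) for Klf1 and 1.27 (1.10 to 1.44) for Gata1, where 68.4% of the genes passed upward and 9.87% downward. The scale thus sets both the call and, for Gata1, the sign, and cells of the E13.5 liver had a median of 191 counts against 62 in the marrow. Gata1 rested on 317 counts in the E13.5 liver.

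Both genes rose with Slc4a1 on this panel too. In the 89-week marrow, Klf1 went from 0.0410 counts per cell without Slc4a1 to 1.19 with at least 10 (log2 4.86, 4.80 to 4.93), and Gata1 from 0.0132 to 0.176 (log2 3.74, 3.59 to 3.88). In this section 46.5% of 2119 genes passed 2-fold upward per cell and 12.4% in CPM of other genes, where Klf1 had 3.29 and Gata1 2.16. In the E13.5 liver the log2 values were 2.15 for Klf1 (1.97 to 2.32) and 2.14 for Gata1 (1.58 to 2.71), where 21% of 262 genes passed per cell and 14.9% in CPM. Gata1, with 317 counts in the whole section and 48 and 67 in these classes, had too few for the calls and is not among the 262. The list of other lineage regulators had 10 genes on this panel. In the 89-week marrow, Tal1, Lmo2 and Nfe2, which act with Gata1 in erythroid cells, had log2 values per cell of 4.26, 3.51 and 3.33, and Gfi1b, which had too few counts for the calls, 3.65. Runx1 had 0.78 and Bcl11a 0.42. Gata2 and Myb, regulators of earlier progenitors, had -1.10 and -1.06, and Fli1 and Spi1, factors of the megakaryocyte and myeloid lineages, -1.16 and -0.62. In CPM of other genes, Runx1 and Bcl11a turned to -0.80 and -1.15. Klf1 and Gata1 were seen together in 0.918% of these cells, at a log2 ratio of 0.89 over the expectation within depth strata, and in 3.102% of the E13.5 liver cells, at 0.46.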

How the data were processed

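Processing is given for the steps that bear on the 3 genes. The authors deposited transcript counts per gene and segmented cell, without normalization, from Xenium Onboard Analysis 1.7.1.0 (smaller panel) and 3.1.0.4 (larger panel). Cells were expanded nuclei on the smaller panel and outlines from boundary stains on the larger. For the smaller panel, transcripts were also deposited with a quality score and a mark for lying over the nucleus, and their sums at a score of at least 20 equalled the deposited counts. No transcript list of the larger panel was used here.

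Cells with at least 5 detected genes were kept, as in the paper's methods. Doublets were not called and neighboring transcripts were not removed. Calls past 2-fold covered genes with at least 1000 counts over both compared sections or, for Slc4a1 classes, over all cells of the section. Cell classes are sets above a marker count and not clusters. Steps were tested on simulated data and run in Python 3.11.15 with numpy 2.4.6, scipy 1.17.1 and pandas 2.3.3. The genes, the marker and pathway lists and the tests were chosen with earlier results of these data known. The analyses by Kit count, of neighboring cells, of decoding quality and of nuclear share in marker cells were added after values were seen. Genes named are the members, those lists and, for each member, the 5 genes highest by co-detection.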

Additional observations from a re-analysis of the deposited data

How the results depend on the processing

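No paired analysis was possible because each condition has 1 section, which also leaves no replicate to omit. For 20 pairs of a value and an alternative, the value stayed within its counting interval. In 3 pairs the direction turned, each with mean counts per cell in place of CPM. Gata1 in the E13.5 liver over the 89-week marrow became 1.27, while Klf1 became 2.06. Hemgn in the Kit-richest over the Kit-negative cells became 0.70 in the P8 marrow and 0.48 in the PHZ-treated spleen, in a check added after seeing the data. The other 10 Kit values moved but kept their direction. Hemgn in the E14.5 liver went from -1.36 to -0.47 and in the untreated spleen from 2.90 to 4.47. Klf1 and Gata1 became larger in each section, to between 1.71 and 6.91. The remaining values that moved follow, in the order Klf1, Gata1 and Hemgn.

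For the E14.5 liver over the P8 marrow, the log2 values became 1.52, 1.44 and 1.02 with a total without Hbb-bt, 1.60, 1.52 and 1.10 with transcripts in or outside cells, and 1.98, 1.89 and 1.47 as mean counts per cell. With decoded transcripts of any quality score, added after seeing the data, they became 1.38, 1.55 and 1.08. Hemgn thus passed 2-fold under each of these settings, and with any quality score Gata1 stood above Klf1.

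For the PHZ-treated over the untreated spleen, they became 4.21, 4.08 and 4.27 with a total without Hbb-bt, 4.50, 4.37 and 4.56 per cell, and 3.71, 3.57 and 3.76 per mm2. Among cells with at least 10 Slc4a1 counts they were 0.96, 1.35 and 0.45. With any quality score, again added later, they were 4.10, 3.84 and 4.26. With transcripts in or outside cells, Klf1 moved to 4.12.

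The median log2 over the 4 sections between the highest and the lowest Slc4a1 class was 4.33, 4.31 and 5.62. It became 3.70, 3.66 and 4.98 in CPM of other genes, 3.58, 3.59 and 4.90 after thinning to 50 counts, and 4.41, 4.40 and 5.70 with transcripts over the nucleus. Without C1q-rich cells, Hemgn moved to 5.56.

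The median log2 of co-detection was 0.59 for Klf1 and Gata1, 0.53 for Klf1 and Hemgn, and 0.53 for Gata1 and Hemgn. In that order it became 0.84, 0.69 and 0.70 without depth strata, 0.47, 0.46 and 0.43 with nuclear transcripts, and 0.0605, 0.0227 and 0.01998 in cells with at least 10 Slc4a1 counts. The last 2 intervals reached below 0.

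The median nuclear share was 58.5%, 57.5% and 61.3%. It became 59.3%, 58.6% and 61.8% with the quality limit raised to 30, 57.3%, 56.6% and 60.7% with transcripts in or outside cells, and 63.6%, 62.7% and 64.6% in cells with at least 10 Slc4a1 counts. The median log2 of Gata1 per Klf1 in megakaryocyte-marker cells over all cells was 0.66 and became 1.48 with at least 10 marker counts.

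With squares of 100 µm, the top 10% held 19.4%, 19.9% and 21.8% in place of 16.9%, 16.8% and 19.4%. The ratio of nucleus areas became 1.15, 1.12 and 1.26 in cells of middle depth. Both of these checks were added after seeing the data. Few counts limit Gata1 in the E13.5 liver (317 counts), and few cells limit the highest Slc4a1 class of the untreated spleen (851 cells).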

Other observations

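Mast cells and eosinophils are further lineages in which Gata1 is known to act. In the untreated spleen, 90 cells with at least 3 counts of the mast cell gene Cpa3 averaged 0.144 Gata1 counts (0.0769 to 0.247), from 13 counts, with 0.0444 Klf1 and 0.0667 Hemgn. In 1279 cells with at least 3 counts of the eosinophil gene Prg2, Gata1 averaged 0.143 (0.123 to 0.165), Klf1 0.121 and Hemgn 0.246. Both Gata1 values lay above the mean of that section, 0.0503, at median depths of 116 and 118 against 84 counts. With at least 10 Prg2 counts, 95 cells averaged 0.0947 Gata1 counts, and that interval (0.0433 to 0.180) includes the section mean.

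Elsewhere the Gata1 values lay on either side of the section mean. Cpa3 cells averaged 1.55 in the E14.5 liver (633 cells, section mean 2.03), 0.552 in the P8 marrow (393 cells, mean 0.547) and 0.842 after PHZ (57 cells, mean 1.04). Prg2 cells averaged 1.97, 0.838 and 0.659 in these sections, which is above the mean in the P8 marrow alone. In the 89-week marrow, 807 cells with Cpa3, Ms4a2 or Mcpt8 averaged 0.0223 Gata1 counts, where the mean was 0.0250, and 275 cells with at least 10 such counts had 0 Gata1 counts (upper limit 0.0134 per cell).

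In cells with at least 3 counts of the macrophage genes C1qa, C1qb and C1qc, Klf1 was found in 6.77%, Gata1 in 5.85% and Hemgn in 9.19% of 38973 outlines of the untreated spleen. After PHZ the shares were 43.4%, 39.3% and 50.4% of 33235 outlines. Mean counts per cell differed 10.04-, 10.2- and 10.04-fold. How much of this comes from cells close by was not tested.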
